A study of Homo sapiens with 12 samples.

Results

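DNA methylation is read in urine to look for bladder tumour cells, and 10 genes used in such tests (TWIST1, NID2, VIM, ONECUT2, OTX1, POU4F2, ZNF154, CFTR, SALL3 and TMEFF2) were followed here through both marks of cytosine, 5-methylcytosine (5mC) and 5-hydroxymethylcytosine (5hmC). The members were chosen by name, and every measured CpG in the hg38 span of each gene with 1500 bp on each side was taken. They are 10 of 20033 protein-coding genes, and they held 1484 of the 3689712 CpGs of the 5mC table and 1434 of the 3534314 CpGs of the 5hmC table. All samples were SV-HUC-1 cells, an established urothelial line immortalised with SV40, so that controls and exposed cells share that genetic background. The DCBQ group was exposed for 3 days to 2,6-dichloro-1,4-benzoquinone, a halobenzoquinone formed as a disinfection byproduct in drinking water. The Control group received blank solution for the same 3 days. The labels used here give no dose of DCBQ. The series lists 12 libraries, 3 per group by reduced representation bisulfite sequencing (RRBS) and 3 per group after an oxidation step (oxRRBS), and each deposited table has 3 Control and 3 DCBQ columns. The labels do not say that the replicates were separate cultures, so every p-value speaks only of the scatter of these samples, part or all of which may be technical.

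A CpG-dense gene start is usually free of 5mC in normal tissue, and in bladder tumours some of these starts gain 5mC, which is what the urine tests detect. TET enzymes oxidise 5mC to 5hmC, and plain bisulfite reads both as methylated, while oxidation before bisulfite leaves only 5mC protected. Gene bodies, in contrast to CpG-dense starts, usually carry 5mC.

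Sequence shows what the enrichment captured at the starts. RefSeq promoter sequence (build GRCh38.p14, 250 bases before to 50 after the start) was matched for 9 of the 10 members, and 4 are printed because they span the range from an unmethylated to a methylated start. Each runs 5′ to 3′ on the strand of the gene, and capitals mark the CpGs with a 5mC value. They are OTX1 (chr2:63050580-63050879, + strand), NID2 (chr14:52069010-52069309, - strand), SALL3 (chr18:78979568-78979867, + strand) and ZNF154 (chr19:57709155-57709454, - strand).
OTX1: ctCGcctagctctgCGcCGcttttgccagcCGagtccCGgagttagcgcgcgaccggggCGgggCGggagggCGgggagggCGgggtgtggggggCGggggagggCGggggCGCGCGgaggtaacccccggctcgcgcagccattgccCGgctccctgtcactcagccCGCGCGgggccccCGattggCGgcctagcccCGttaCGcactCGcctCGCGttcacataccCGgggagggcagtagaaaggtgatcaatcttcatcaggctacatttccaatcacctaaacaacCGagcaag
NID2: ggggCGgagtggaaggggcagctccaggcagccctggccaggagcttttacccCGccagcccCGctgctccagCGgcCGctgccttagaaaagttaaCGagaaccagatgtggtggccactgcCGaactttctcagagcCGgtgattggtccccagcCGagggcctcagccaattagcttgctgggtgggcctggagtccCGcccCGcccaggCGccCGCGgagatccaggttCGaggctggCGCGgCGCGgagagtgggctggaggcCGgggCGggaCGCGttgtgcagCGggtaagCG
SALL3: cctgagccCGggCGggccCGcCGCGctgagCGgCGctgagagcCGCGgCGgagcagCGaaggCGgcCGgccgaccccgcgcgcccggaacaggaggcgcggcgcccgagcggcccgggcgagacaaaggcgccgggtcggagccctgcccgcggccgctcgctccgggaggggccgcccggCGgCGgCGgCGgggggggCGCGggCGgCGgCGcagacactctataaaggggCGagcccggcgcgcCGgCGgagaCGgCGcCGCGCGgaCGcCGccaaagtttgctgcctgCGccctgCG
ZNF154: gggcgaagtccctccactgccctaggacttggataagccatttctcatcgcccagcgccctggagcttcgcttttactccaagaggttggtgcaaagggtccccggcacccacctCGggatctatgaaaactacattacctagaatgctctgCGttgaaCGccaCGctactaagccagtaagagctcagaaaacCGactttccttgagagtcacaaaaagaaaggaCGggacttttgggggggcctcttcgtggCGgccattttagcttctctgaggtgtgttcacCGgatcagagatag

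In the printed OTX1 sequence 27 of 34 CpGs were measured, with a mean control 5mC of 0.82% ± 0.14 (SD, n = 3) and no CpG above 4.80% in the control mean. The NID2 sequence had all 25 of its CpGs measured, at 2.30% ± 0.80 in controls and at most 17.6% in the control mean of a CpG. In SALL3, 34 of 59 CpGs were measured, at 8.95% ± 2.34, and control means of single CpGs ranged from 0% to 44.6%. The ZNF154 sequence had 8 of 14 CpGs measured, at 82.1% ± 1.0 in controls. Its lowest control mean of a CpG was 57.9%, and that CpG read 50% in Control2 and 27.3% in DCBQ3. OTX1 and ZNF154 thus mark the ends of the range, a promoter sequence with little 5mC and one with a high mean 5mC. CCGG, the site cut by the enzyme MspI that RRBS usually relies on, reads the same on both strands and was found 5, 2, 9 and 2 times in the OTX1, NID2, SALL3 and ZNF154 sequences, and in 63.1% of all 35116 promoters of the same length. The VIM and CFTR promoter sequences each hold 1 CCGG and no measured CpG, so their start windows rest on CpGs outside that sequence.

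**Figure D1:**
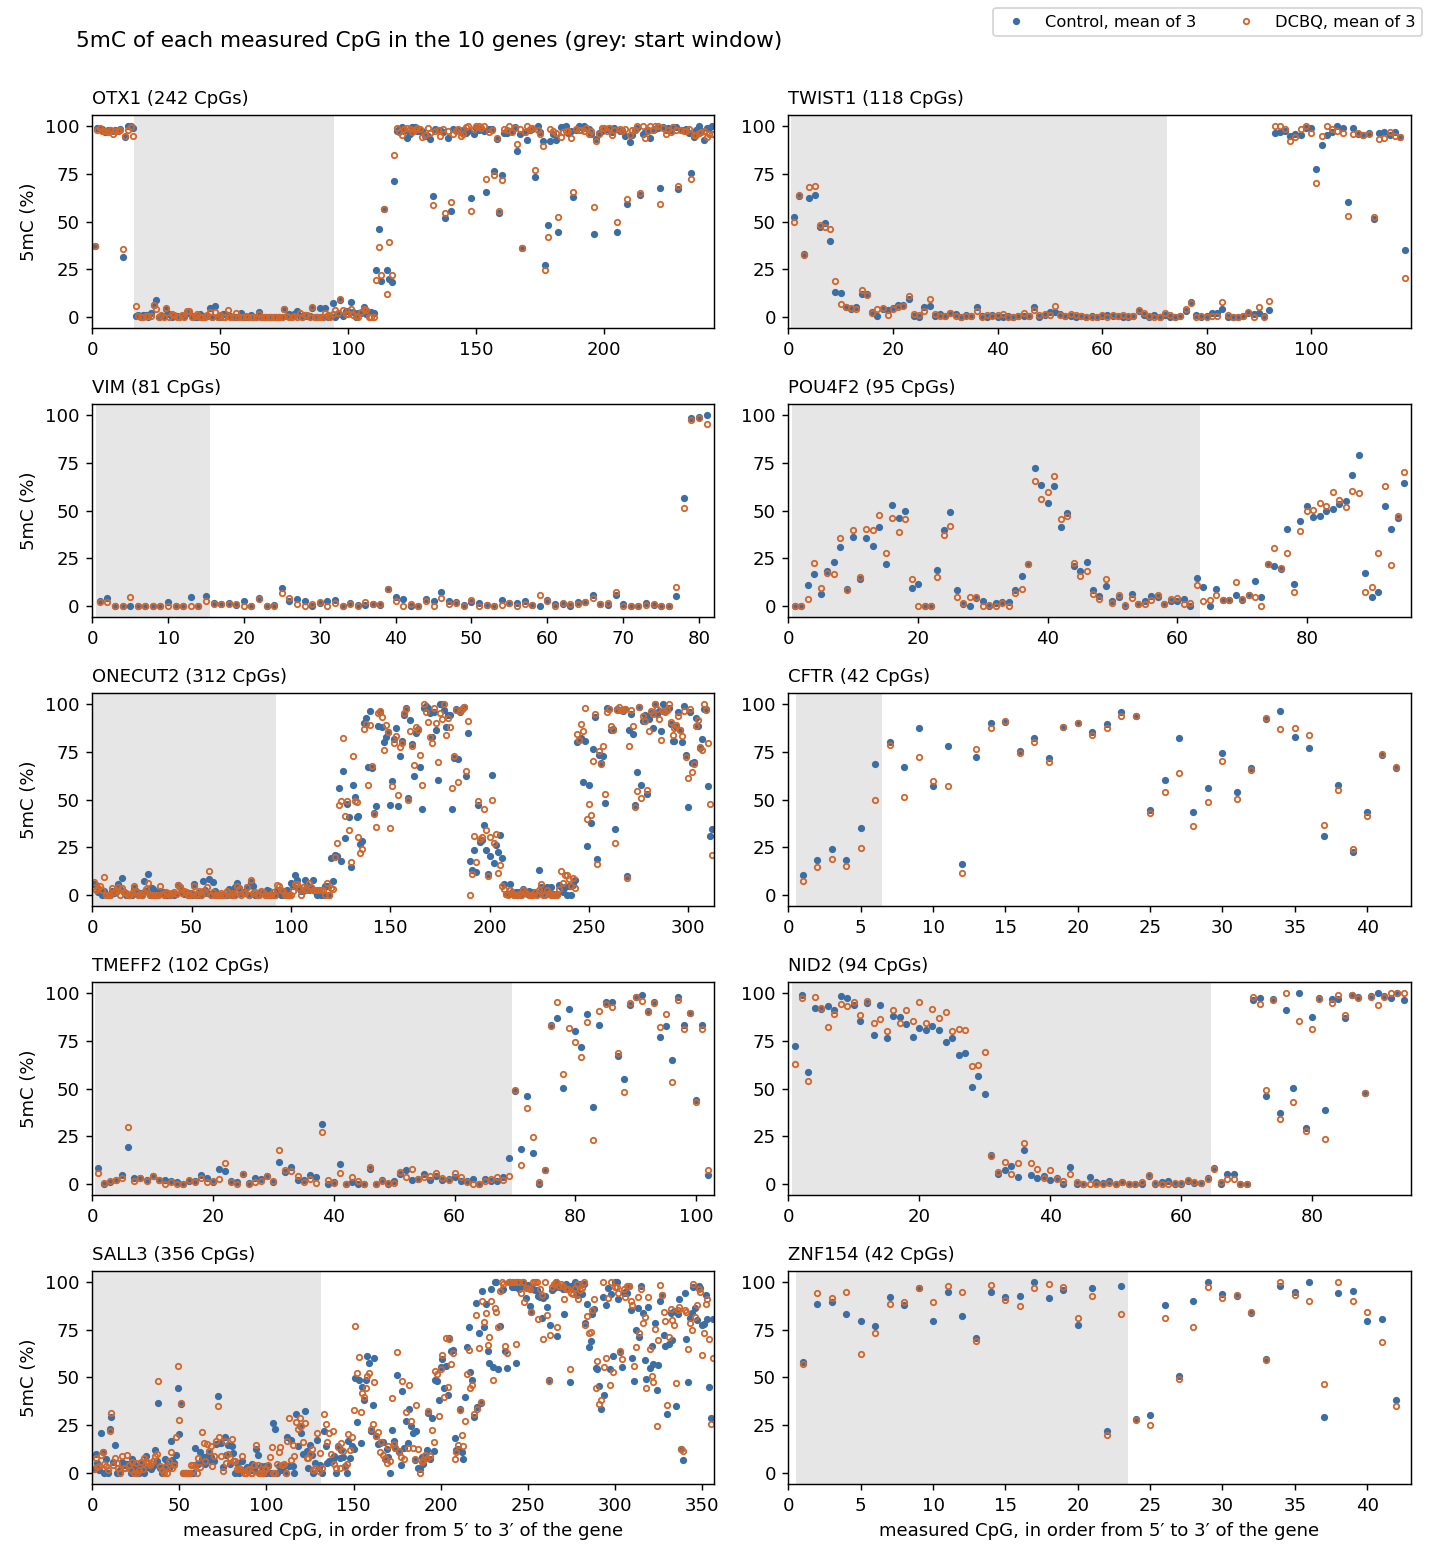
5mC of every measured CpG (y axis, percent) in its order along each gene (x axis, CpG number from 5′ to 3′, with no scale in bp), as the mean of 3 Control samples (filled) and 3 DCBQ samples (open). Grey marks the start window, and panels run from the lowest control mean there (OTX1, 1.18%) down the left column and then the right column to the highest (ZNF154, 84.5%).

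Methylation at the start was taken as the mean over the CpGs from 1500 bp before to 500 bp after the transcription start, and the body as everything further in. Controls ordered the starts from OTX1 (1.18% ± 0.27, 78 CpGs), VIM (1.22% ± 0.51, 15 CpGs) and ONECUT2 (1.86% ± 0.32, 92 CpGs), whose sample ranges overlapped as neighbours. TMEFF2 followed at 3.69% ± 0.33 (69 CpGs). SALL3 (7.82% ± 0.62, 131 CpGs) and TWIST1 (7.83% ± 0.13, 72 CpGs) overlapped each other. POU4F2 stood at 17.8% ± 1.9 (63 CpGs), CFTR at 29.2% ± 3.8 (6 CpGs), NID2 at 39.4% ± 0.7 (64 CpGs) and ZNF154 at 84.5% ± 2.3 (23 CpGs), each above the sample range of the gene before it. So 6 of the 10 starts were under 10% in controls, a share of 60%, beside 60.4% of the 15391 genes tested. Their median control level was 7.83% against 4.86% over all genes tested.

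The bodies had another order. TWIST1 (1.61% ± 0.49, 20 CpGs) and VIM (7.17% ± 0.24, 66 CpGs) had the lowest means over the measured CpGs of the body. Only 1.6% and 3.5% of the genes tested lay below them. Both means rest mostly on CpGs near the start, and those of TWIST1 all lie from 501 to 1125 bp after it. In VIM all but 4 lie from 715 to 1851 bp, and the 4 at 6479 to 6527 bp stood at 88.7% in controls. POU4F2 reached 29.8% ± 1.0, ONECUT2 49.3% ± 0.3 and SALL3 57.8% ± 0.5. NID2 (66.8% ± 0.5) and TMEFF2 (67.6% ± 2.5) overlapped in range. CFTR (70.5% ± 0.8), OTX1 (73.3% ± 0.5) and ZNF154 (75.2% ± 1.1) were the highest of the 10. The median over the 10 bodies was 62.3%, against 72.3% over the 16549 genes tested.

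**Figure D2:**
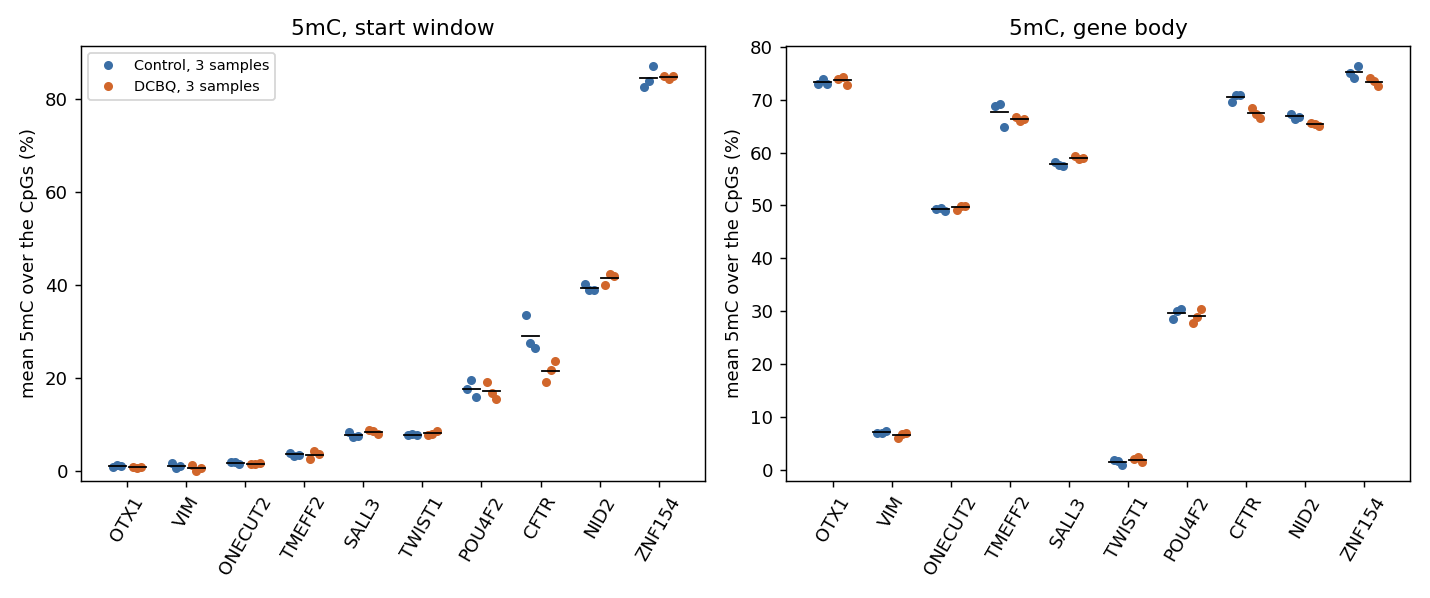
Mean 5mC (y axis, percent) of each gene in the start window (left) and the body (right), with 1 dot for each of 3 Control and 3 DCBQ samples and a black bar at the group mean. Genes stand in the order of their control level at the start, from OTX1 to ZNF154, and CFTR is the gene whose dots separate by group in both panels.

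Among the transcription factors, OTX1 (chr2:63049735-63057831, + strand), a homeobox factor of brain development, had a sharp boundary. From 701 bp before to 135 bp after the start its 74 CpGs averaged 1.08% ± 0.18 in controls and 0.89% ± 0.09 in DCBQ samples. Between 429 and 782 bp after the start 27 CpGs stood at 9.83% ± 2.44 in controls, and from 1052 to 1297 bp 20 CpGs stood at 94.2% ± 0.9. The 16 CpGs upstream of the gene and the 38 downstream of it averaged 90.2% ± 0.6 and 92.1% ± 0.4. The low-5mC stretch of OTX1 was therefore bounded on both sides by highly methylated CpGs in both groups. The OTX1 start window stood at 0.91%, 1.46% and 1.17% in controls and 0.85%, 0.78% and 1.06% in DCBQ samples, ranges that overlap.

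TWIST1, a basic helix-loop-helix factor of mesoderm and of epithelial-mesenchymal transition, lies on the - strand at chr7:19113047-19117636, and its start was set at the gene end with more measured CpGs. Its 50 CpGs from 224 to 512 bp after the start averaged 0.97% ± 0.12 in controls. Further upstream, from 684 to 624 bp before the start, 9 CpGs averaged 47.2% ± 3.0, with control samples at 44.06%, 49.97% and 47.52% and DCBQ samples at 50.2%, 44.2% and 53.4%. These upstream values overlap between the groups. The 26 CpGs just beyond the other gene end stood at 90.4% ± 0.9, inside the lncRNA LOC124901597 (chr7:19106928-19113245).

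ONECUT2 (chr18:57435374-57491298, + strand), a cut-homeodomain factor, showed 2 low regions with a methylated one between them. Its start window stood at 1.86% in controls and 1.65% ± 0.14 in DCBQ samples. In 250 bp steps the level was 6.53% ± 0.32 from 500 to 750 bp after the start, 50.7% ± 1.1 from 750 to 1000 bp and 87.9% ± 3.2 from 1250 to 1500 bp. It was back at 1.96% ± 0.89 from 2500 to 2750 bp and at 81.6% ± 1.3 over the 28 CpGs from 4304 to 4783 bp. Of its 312 CpGs, 66 lay between 20% and 80% in controls.

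POU4F2 (chr4:146638893-146642474, + strand), a POU-domain factor of retinal ganglion cells, had a mixed start. In controls none of its 95 CpGs reached 80%, 57 were at or below 20% and 38 lay between. Within the first 250 bp after the start 23 CpGs averaged 21.5% ± 4.6 and the highest reached 72.6%. The 4 CpGs measured in the 250 bp before the start averaged 2.00% ± 1.45. All 4 lay within 20 bp of the start, and the next measured CpG was 358 bp upstream. The start window read 17.6%, 19.7% and 16.0% in controls and 19.2%, 16.9% and 15.5% in DCBQ samples. Those ranges cover almost the same values, with 1 sample of each group above 19%.

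SALL3 (chr18:78979818-78998969, + strand), a zinc-finger factor of the spalt family, had the most CpGs (356). The start window read 8.54%, 7.42% and 7.51% in controls and 8.97%, 8.58% and 7.96% in DCBQ samples, which overlap. The level in controls was 8.77% ± 1.83 from 250 to 500 bp after the start and 48.5% ± 2.8 from 1000 to 1250 bp. Its 6 stretches of CpGs from 12228 bp on averaged between 70.5% and 90.3% in controls. The start window of SALL3 overlaps the lncRNA LINC01896, which ends at chr18:78979691.

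ZNF154 (chr19:57696275-57709204, - strand), a KRAB zinc-finger gene, was the 1 member with a methylated start in this line. Control samples read 82.5%, 83.9% and 87.0% and DCBQ samples 85.0%, 84.3% and 84.9%. The DCBQ samples lay inside the control range. Of the genes tested, 94.3% had a lower control level at the start, and none of the 42 CpGs of ZNF154 was at or below 20% in controls while 28 were at or above 80%.

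Among the structural genes, VIM (chr10:17228241-17237593, + strand) encodes vimentin, the intermediate filament of mesenchymal cells. From 307 to 1851 bp after its start all 4 stretches of CpGs averaged between 1.22% and 2.08% in controls, and the next measured stretch, 4 CpGs at 6479 to 6527 bp, stood at 88.7% ± 1.3. The lncRNA VIM-AS1 (chr10:17214239-17229985) overlaps most of that low region. NID2 (chr14:52004809-52069059, - strand) encodes nidogen 2, a basement membrane protein. Its start average of 39.4% mixes opposite parts: 13 CpGs from 750 to 500 bp upstream stood at 88.2% ± 0.6 in controls, 22 CpGs from 500 to 250 bp at 59.8% ± 1.3, 18 CpGs of the last 250 bp at 2.84% ± 1.14 and 11 CpGs after the start at 1.10% ± 0.45. The methylated part lies inside the lncRNA LOC105378180 (chr14:52069236-52074147). At the other end of NID2, the body CpGs at chr14:52009721-52009821 lie inside the protein-coding gene RTRAF (chr14:51989546-52010694). A single mean over the window thus combines a start with little 5mC and a methylated upstream region.

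Of the membrane proteins, TMEFF2 (chr2:191949046-192194933, - strand) carries EGF-like and follistatin-like domains. Its start window was 4.05%, 3.41% and 3.62% in controls and 2.61%, 4.30% and 3.76% in DCBQ samples, and its 4 stretches from 139234 bp on lay between 73.6% and 79.2% in controls. Those 4 stretches are also inside the lncRNA CAVIN2-AS1 (chr2:191846488-192063829). CFTR (chr7:117480025-117668665, + strand) is a chloride channel of epithelia. Only 6 CpGs of its start window were measured, all from 512 to 442 bp upstream (chr7:117479513-117479584), and in controls they stood at 10.5% at the first and 68.5% at the last.

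DCBQ was then compared with Control gene by gene, with limma fitted to all genes tested. At the start, 0 of the 10 members passed an adjusted limma p of 0.05, as did 0% of the 15391 genes, and 1 of 10 had an unadjusted p under 0.05, beside 6.64% of all genes. In 1 of 10 the groups did not overlap, beside 11.9% of all genes. In the body, 0 of 10 members and 0% of genes passed, 3 of 10 had an unadjusted p under 0.05 against 8.61%, and 4 of 10 had groups that did not overlap against 15.9%. Without the sample DCBQ3 the count of 3 was 1. Over the gene with both flanks, 0 of 10 members and 0% of 18416 genes passed, 2 of 10 had an unadjusted p under 0.05 against 9.12%, and 2 of 10 had groups apart against 16.3%. At the start 6 members were lower and 4 higher in DCBQ samples, with a median difference of -0.17 percentage points, beside 59.7% lower and a median of -0.1 over all genes. In the body it was again 6 lower and 4 higher, with a median of -0.58 points beside -0.39 over all genes, of which 69.6% were lower.

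CFTR had the lowest p of the 10 in every region of the 5mC table. At the start its 5mC was 33.5%, 27.5% and 26.5% in the 3 controls, against 19.3%, 21.7% and 23.8% after DCBQ. All DCBQ samples lay below all controls, by 7.58 points on average (difference -7.58, SE 2.05, limma adjusted p = 0.648). By single CpG the groups were apart only at 466 and 442 bp upstream, with differences of -10.7 and -18.8 points. At the other CpGs of the start they overlapped, with differences from -5.57 to -3.20 points. The body read 69.6%, 71.0% and 70.9% in controls and 68.5%, 67.2% and 66.6% in DCBQ samples, a difference of -3.03 points (SE 0.70, limma adjusted p = 0.495). Over the whole gene with flanks the controls were 64.4%, 64.8% and 64.5% and the DCBQ samples 61.4%, 60.7% and 60.5%. That difference of -3.68 points (SE 0.39) ranked 3 among 18416 genes by limma p (6.96e-05), and its limma adjusted p was 0.334, so it did not pass. Only 42 CpGs carry these CFTR values. Within the body the stretches differed: 5 CpGs from 43452 to 43508 bp read 70.1%, 78.1% and 73.9% in controls and 73.1%, 76.4% and 42.0% in DCBQ samples. There only DCBQ3 was low. The 5hmC of these 5 CpGs in DCBQ3 read 2.80%, 4.90%, 31.5%, 34.3% and 65.0%. Over the 5 CpGs the mean 5hmC was 8.67% in controls and 13.9% in DCBQ samples, with groups that overlapped. At 78389 to 78445 bp the other two DCBQ samples were the low ones, at 46.7% and 49.5%, with DCBQ3 at 67.5% and controls from 60% to 67.6%.

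In 3 other genes the bodies had groups that did not overlap. The NID2 body read 67.3%, 66.4% and 66.7% in controls and 65.7%, 65.4% and 65.0% in DCBQ samples, a difference of -1.46 points (SE 0.48, limma adjusted p = 0.567). ZNF154 read 74.9%, 74.1% and 76.4% against 74.1%, 73.5% and 72.5%, a difference of -1.79 points (SE 0.77, limma adjusted p = 0.595), with the lowest control (74.13%) and the highest DCBQ sample (74.12%) nearly equal. The SALL3 body was the 1 of these that was higher in DCBQ samples. It read 58.3%, 57.6% and 57.4% in controls and 59.3%, 58.8% and 59.0% in DCBQ samples, a difference of 1.26 points (SE 0.45, limma adjusted p = 0.572). Over the SALL3 span the difference was 1.04 points (SE 0.37, limma adjusted p = 0.516), again with no overlap.

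The NID2 start window was 40.3%, 39.0% and 39.0% in controls and 40.1%, 42.4% and 41.9% in DCBQ samples, and the groups overlapped through DCBQ1. Most of that lay in the step from 500 to 250 bp upstream, at the border of its methylated part. In that step 5mC was 61.3%, 59.2% and 58.8% without DCBQ, and 61.9%, 69.5% and 66.6% with it. All DCBQ samples were above all controls, by little in DCBQ1. This step was picked after its values were seen, and no test is given. In the 250 bp next to the start NID2 stood at 2.84% ± 1.14 in controls and 3.45% ± 1.16 in DCBQ samples.

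Neighbouring CpGs were grouped into stretches of at least 3 CpGs with gaps of at most 200 bp. In 7 of the 64 member stretches of 5mC the groups did not overlap, 5 lower and 2 higher in DCBQ samples, beside 11.2% of all stretches of the table. The lower ones were in CFTR (the 6 CpGs upstream of the start), SALL3, TMEFF2, ZNF154 and NID2, and the higher ones in SALL3 and ONECUT2. SALL3 held both directions close together. At chr18:78992046-78992081 3 CpGs read 84.6%, 90.0% and 81.0% in controls and 74.6%, 69.9% and 74.6% in DCBQ samples, and at chr18:78992368-78992423 10 CpGs read 84.9%, 82.7% and 83.7% against 87.1%, 91.1% and 92.0%. The DCBQ samples were all lower in the first of these neighbouring stretches and all higher in the second. In ZNF154 5 CpGs from 707 to 811 bp read 56.1%, 60.9% and 55.6% in controls and 51.3%, 52.1% and 52.5% in DCBQ samples.

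**Figure D3:**
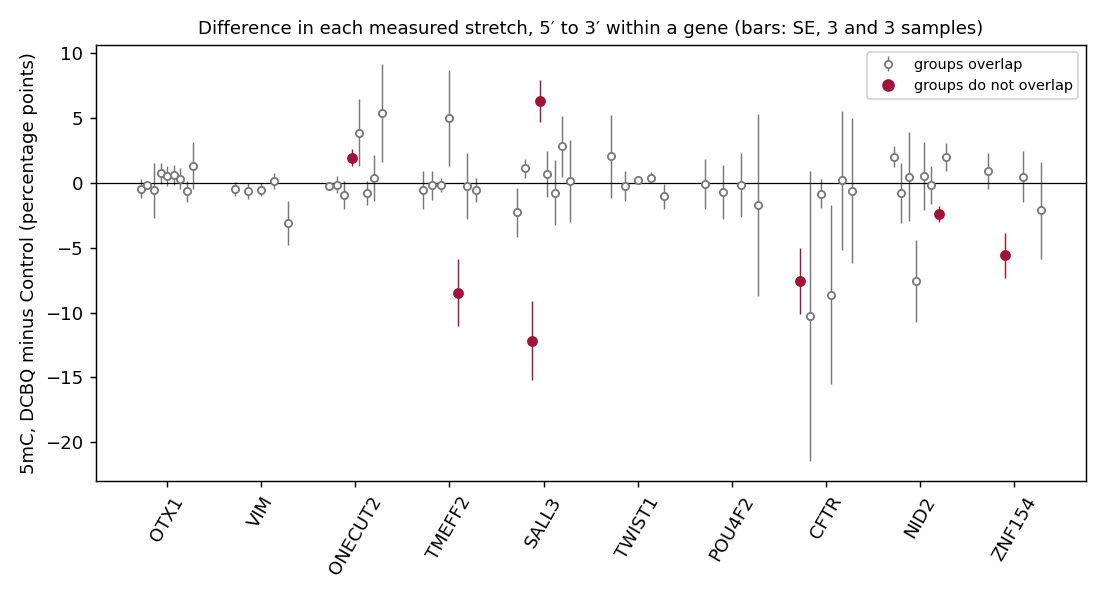
Difference in mean 5mC (y axis, DCBQ minus Control, percentage points) of each member stretch, placed 5′ to 3′ within its gene, with bars for the SE over 3 and 3 samples. Filled red points are the 7 of 64 stretches whose groups do not overlap, from -12.2 points in SALL3 to 6.31 points in SALL3.

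By single CpG, 0 of the 1374 member CpGs that varied passed an adjusted p of 0.05 with a difference of at least 10 points, as did 0% of the table. At an unadjusted p under 0.05 there were 71 (31 lower, 40 higher), 5.17% beside 4.69% of all CpGs, and in 104 (7.57%) the groups did not overlap, beside 8.02%. The lowest p among member CpGs was at SALL3, 376 bp after the start (chr18:78980194), where controls read 0%, 11.1% and 0% and DCBQ samples 33.3%, 25.0% and 28.6% (limma adjusted p = 0.85). There 1 control sample was above 0% and all DCBQ samples were at 25% or more. At POU4F2, 568 bp before the start, controls read 7.1%, 16.7% and 11.1% and all 3 DCBQ samples 0% (limma adjusted p = 0.875). In the NID2 body a CpG 29387 bp after the start read 100%, 100% and 99.8% in controls and 84.2%, 80.5% and 91.9% in DCBQ samples (limma adjusted p = 0.898). Taking the CpG with the lowest p of each member, 5 were lower and 5 higher in DCBQ samples. In no member, for either mark, did 3 or more consecutive CpGs all have groups that did not overlap in 1 direction, so 0 such runs were found.

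Control means of 5hmC were under 10% at the start and in the body of all 10 members. Single CpGs went higher, and 15 CpGs of SALL3 and 2 of ONECUT2 lay between 20% and 80% in controls. At the start, control means ran from 0.51% ± 0.16 in OTX1 to 5.34% ± 1.89 in ZNF154, and every neighbour in that order overlapped. The median of the 10 was 2.36%, beside 1.18% over the 15278 genes tested. In the body TWIST1 was lowest (0.74% ± 0.52) and SALL3 highest (8.46% ± 1.16), and 99% of the genes tested had a lower 5hmC level than the SALL3 body. The 2 marks differed in how far samples resembled each other: across the 1484 member CpGs the correlation between any 2 samples was 0.967 to 0.975 for 5mC, and across the 1434 CpGs of 5hmC it was 0.157 to 0.286. These are correlations across CpGs that share libraries and neighbours, given as a description. Over all CpGs of the tables they were 0.968 to 0.972 and 0.197 to 0.231.

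**Figure D4:**
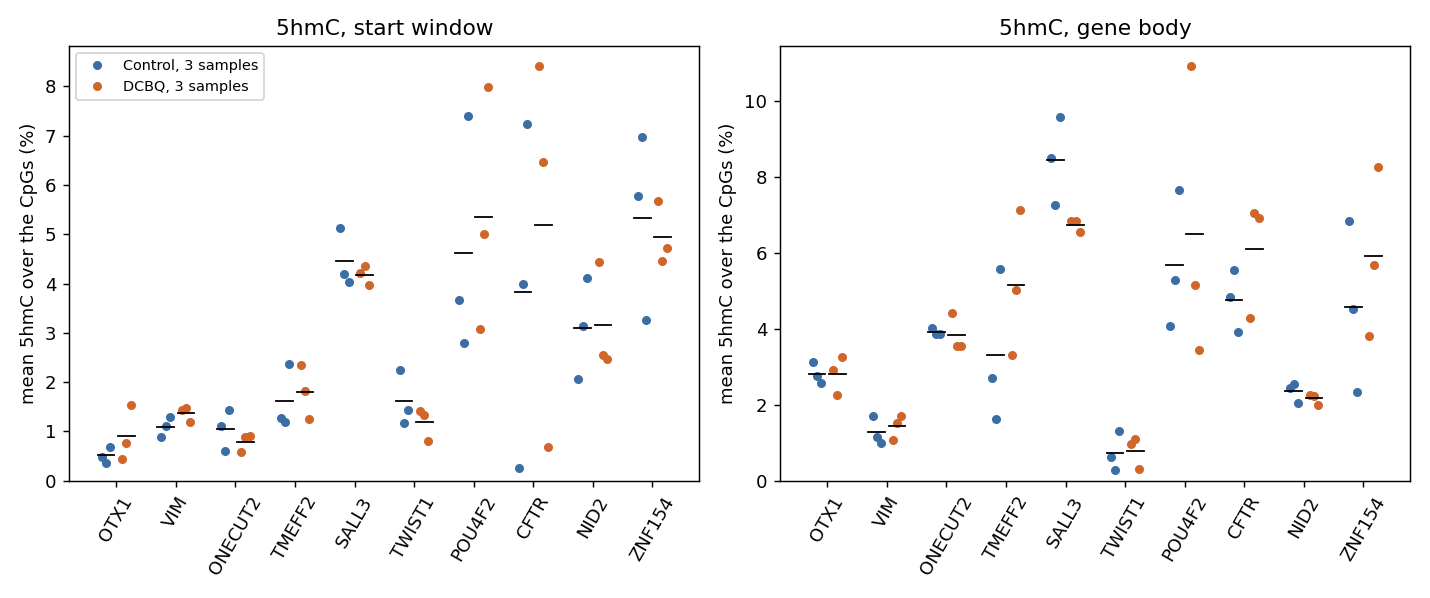
Mean 5hmC (y axis, percent) of each gene in the start window (left) and the body (right), with 1 dot per sample and a black bar at the group mean. The groups overlap in all starts, and in the bodies only SALL3 has its 3 Control dots above its 3 DCBQ dots.

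For 5hmC, 0 of 10 starts and 0% of genes passed limma's adjusted p of 0.05, 0 of 10 had an unadjusted p under 0.05 against 4.9%, and 0 of 10 had groups apart against 9.94%. In the body it was 0 of 10 and 0%, then 0 of 10 against 5.36%, and 1 of 10 with groups apart against 9.91%. That 1 was SALL3. Its body read 8.51%, 7.27% and 9.60% in controls and 6.85%, 6.84% and 6.55% in DCBQ samples, a difference of -1.72 points (SE 1.31, limma adjusted p = 0.987). By CpG, 0 of 1279 passed, and 3 CpGs of the whole table did (9.51e-05%), outside the members, and 0 with any 1 sample left out. At an unadjusted p under 0.05 there were 23 member CpGs (1.80%, beside 1.98%), and 60 had groups apart (4.69%, beside 6.03%). The count of 23 became 15 without Control1 or with the replicate number as a block, 14 without DCBQ1 and 13 without DCBQ2 or DCBQ3. Controls of the OTX1 start lay within 0.37% to 0.69% 5hmC and those of SALL3 within 4.04% to 5.12%. The 6 CpGs of the CFTR start spread more widely and read 0.26%, 4.00% and 7.24% in controls and 8.41%, 6.47% and 0.69% in DCBQ samples.

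CpGs of intermediate 5mC had the highest mean 5hmC values. Grouped by their mean 5mC over the 6 samples, the 309 member CpGs between 20% and 80% averaged 7.93% ± 0.96 5hmC in controls, against 2.37% ± 0.33 in the 752 CpGs at or below 20% and 2.74% ± 0.30 in the 372 at or above 80%. DCBQ samples gave 7.41% ± 0.68, 2.28% ± 0.09 and 2.87% ± 0.11. Over all CpGs the control values were 6.43%, 1.55% and 2.86%. Of all 5hmC values 55% are 0 and 0 lie below 0 by more than rounding, and the sources used here do not give how the values were derived or whether differences under 0 were set to 0. With the low correlation between samples given above, the part of counting noise in these class means was not tested. A 5hmC value above 0 in all 6 samples was found at few CpGs: 10 of 308 in ONECUT2, 7 of 94 in POU4F2, 7 of 323 in SALL3 and 0 of 38 in CFTR. At POU4F2, 73 bp after the start, 5hmC read 11.4%, 13.9% and 24.4% in controls and 12.82%, 16.98% and 37.14% in DCBQ samples, at a CpG with 63.2% 5mC in controls. At OTX1, 2362 bp after the start, it read 9.3%, 31.5% and 8.5% in controls and 13.7%, 20.8% and 10.7% in DCBQ samples. Both CpGs were chosen because their lowest sample was the highest within the gene.

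**Figure D5:**
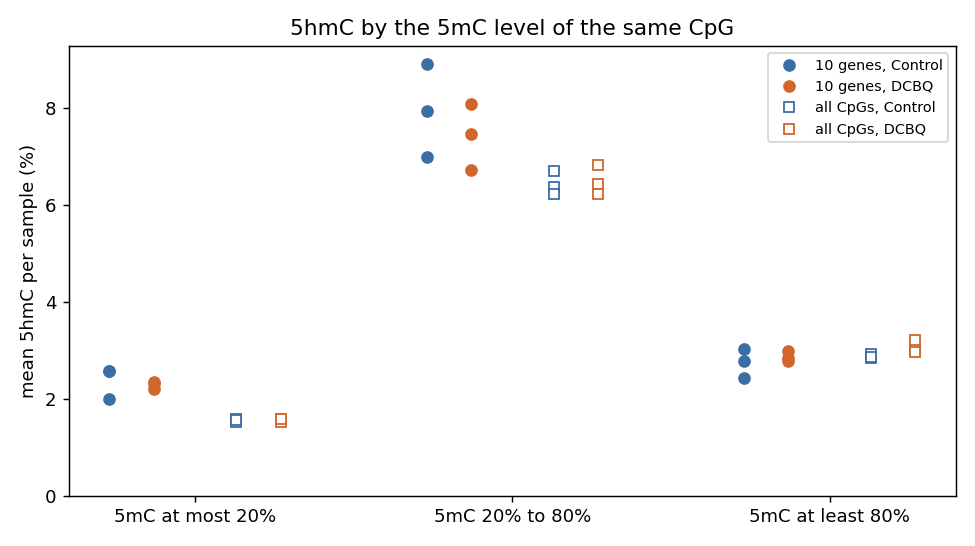
Mean 5hmC per sample (y axis, percent) of CpGs grouped by their mean 5mC over the 6 samples (x axis), for the 10 genes (filled circles) and all CpGs (open squares), with 3 Control and 3 DCBQ samples each. The intermediate class has the highest mean in every sample, at 6.71% to 8.90% in the 10 genes, and the part of counting noise in it was not tested.

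Among the 61 member stretches of 5hmC, 5 had groups that did not overlap (3 lower, 2 higher), beside 9.87% of all stretches. In 3 of these the 5mC groups overlapped. The 35 CpGs of SALL3 at chr18:78994306-78994797 averaged 11.1% 5hmC in controls and 6.80% in DCBQ samples. In OTX1 28 CpGs averaged 3.08% and 2.01%, and in VIM 10 CpGs averaged 1.04% and 1.75%. In 2 of the 46 member stretches with the same CpGs in both tables the groups were apart for both marks in opposite directions, and in 0 in the same direction. The first was the SALL3 stretch of 10 CpGs at chr18:78992368-78992423 already described as higher for 5mC, where 5hmC read 5%, 5.51% and 6.22% in controls and 3.50%, 1.67% and 0% in DCBQ samples. In TMEFF2, 5 CpGs deep in the body (chr2:192049857-192049894) read 77.2%, 71.6% and 74.7% 5mC in controls and 63.7%, 70.1% and 64.4% in DCBQ samples. The same 5 CpGs read 1.69%, 2.67% and 1.79% 5hmC in controls and 8.04%, 4.84% and 10.6% in DCBQ samples. They lie inside the lncRNA CAVIN2-AS1 as well as TMEFF2. Summed over both marks, the SALL3 stretch stood at 89.3% in controls and 91.8% in DCBQ samples, and the TMEFF2 stretch at 76.6% and 73.9%. The sources used here do not give whether the 2 tables draw on the same libraries. Over all 240817 stretches with the same CpGs in both tables, 6348 (2.64%) were apart in opposite directions and 167 (0.0693%) in the same direction. Apart or not, the differences of the 2 marks had opposite signs in 31 of the 46 member stretches (67.4%), beside 69.6% of all these stretches. Opposite signs were thus common throughout, and the part of the derivation of the values in them was not tested.

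The mean over all member CpGs was 38.4%, 38.3% and 38.0% 5mC in controls and 38.4%, 38.4% and 38.3% in DCBQ samples, a difference of 0.127 points (SE 0.131), while over all CpGs of the table it was -0.416 points (SE 0.105). Weighing each gene equally instead of each CpG gave -0.375 points, with the 356 CpGs of SALL3 and the 42 of CFTR then counting alike. For 5hmC the mean was 3.66% ± 0.32 in controls and 3.54% ± 0.08 in DCBQ samples, a difference of -0.124 points (SE 0.193), with overlapping groups. Its direction turned with each gene weighing the same (0.203 points) and without Control3 (0.034 points).

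Other genes reported as methylation markers of bladder tumours, 53 in a list made from memory of the literature, served as a comparison. Their 50 measured starts had a median control level of 10.9%, 23 were under 10% and 7 over 50%. The lowest were DKK3 (0.67%), SLIT2 (0.90%) and HS3ST2 (1.05%), and the highest GDF15 (83.5%), GATA2 (93.5%) and RUNX3 (98.7%). In that list 0 genes passed the adjusted limma test, with a median difference of -0.07 points. At the start 1 of the 50 had an unadjusted p under 0.05, beside 6.64% of all genes tested. Marker genes of cell types were read the same way. The 7 measured epithelial starts had a median of 2.14% and ran from 1.16% in EPCAM to 23.7% in CLDN4, with CDH1 at 10.95%. The 3 measured urothelial starts were KRT5 at 2.23% ± 0.52, GATA3 at 52.2% ± 15.4 and UPK3A at 63.5% ± 1.7. The GATA3 start thus varied widely among the controls, while the GATA3 body stood at 23.7% ± 0.2. The leukocyte starts SPI1 and CD3D stood at 49.6% and 84.1%, and the fibroblast start COL1A1 at 54.9%, all in controls. CD3D stood at 77.4% ± 3.2 in DCBQ samples against 84.1% ± 1.5 in controls (limma adjusted p = 0.629). Its groups did not overlap, as in 11.9% of all starts tested. An unadjusted p under 0.05 was found for 1 of 2 leukocyte starts and 2 of 4 leukocyte bodies, beside 6.64% and 8.61% of all genes tested. It was found for 0 of the measured epithelial, urothelial and fibroblast starts and bodies, and 0 of all these passed the adjusted test. Of the 4 leukocyte bodies 2 were lower and 2 higher in DCBQ samples. LCP2 stood at 63.8% in controls and 61.5% in DCBQ samples, and PTPRC at 88.1% and 89.9%. Any part of cell type in the values of the 10 genes was not tested. No read depth comes with the values, so no interval for a single CpG can be given.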

How the data were processed

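The deposited values are fractions per CpG, 1 table for 5mC and 1 for 5hmC, made by the authors from RRBS and oxRRBS libraries; per the labels' protocols these came from the Ovation RRBS Methyl-Seq kit with the TrueMethyl oxBS kit. Per the submitters' processing notes, cutadapt, Trim Galore and BSMAP 2.90 were used with hg38. The name of each deposited table gives a minimum of 5 reads per CpG, read depth is unknown beyond that, and the sources used here do not give how the libraries were combined into 5hmC.

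Of the 21205884 deposited 5hmC values, 11708, the lowest -1.11e-16, lay within 1e-09 of 0 without being 0 and were set to 0, a choice made after the values were seen. Fractions were multiplied to percent, averaged per gene and sample over at least 5 CpGs, and tested with limma 3.58.1 (trend, two-sided, R 4.3.3) over all protein-coding genes or all varying CpGs, with Benjamini-Hochberg adjustment and a threshold of 0.05. An exact permutation test of 3 against 3 samples has 20 relabellings and cannot go below p = 0.1, so none is quoted. Gene positions came from a RefSeq table; 4192 of 20033 starts, TWIST1 among them, were set at the gene end with more measured CpGs. Units with the same level in every sample could not be fitted and were left out (3 of 15394 5mC starts, 1 of 16550 bodies, 4 of 15282 5hmC starts), a choice made after the values were seen, as were the stretches, the 250 bp steps, the choice of promoter entry at the gene's 5′ end and the CpGs repeated in all samples. The scripts were tested on simulated data. The members and gene lists were chosen with earlier results of these data known. Named by rule were all 10 members, a difference with its adjusted p where groups did not overlap, the CpG with the lowest p per member, and the 3 lowest and 3 highest of the other markers. Exon and UTR annotation was not used here.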

Additional observations from a re-analysis of the deposited data

How the results depend on the processing

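The 6 counts of genes or CpGs called stayed at 0 in 67 of 67 alternative settings (logit scale, replicate block, 10 or 1 CpGs as the minimum, median over CpGs, shared CpGs, a window of 500 bp each side, each sample left out, rounding residues kept). The 9 named differences kept their direction without passing in 105 of 105. Leaving out 1 sample could not turn a direction, since these differences were named for groups that did not overlap. The logit scale, the replicate block and the CpG minimum leave the difference in percentage points unchanged. Only the median, the shared CpGs and the narrower window could turn it. The adjusted limma p of the 9 differences ranged from 0.279 to 1. For CFTR the start difference ranged from -8.93 to -5.42 points and has no value with at least 10 CpGs. Members with an unadjusted p under 0.05 numbered 2 for 5mC starts without DCBQ1 (1 with all samples) and 1 for bodies without DCBQ3 (3 with all samples). The median left 8198 of 15394 5mC starts and 4730 of 15282 5hmC starts to test, since the others had the same median in every sample. The count of 5hmC CpGs called in the whole table (3) was 0 with the block and with each sample left out. With rounding residues kept, an alternative chosen after seeing the data, it was 1, and 19 member CpGs had an unadjusted p under 0.05 (23 without the residues).

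The mean over all member CpGs depended on the weighting. With each gene weighing the same it was -0.375 points for 5mC (0.127 with each CpG the same) and 0.203 points for 5hmC (-0.124). The largest 5mC differences of each sign over a span were -3.68 points in CFTR (42 CpGs) and 1.04 in SALL3 (356 CpGs). For 5hmC they were -1.17 points in SALL3 (323 CpGs) and 1.33 in CFTR (38 CpGs). With 1 sample left out the 5mC difference ranged from 0.003 to 0.214 and the 5hmC difference from -0.29 to 0.034, the last without Control3. The cause was not tested. Columns with the same number did not pair: correlations of their deviations lay between -0.047 and 0.017, and with the replicate block the mean differences were 0.127 and -0.124 points and 2 bodies had an unadjusted p under 0.05. Without read depth, a difference at 1 CpG cannot be set against its counting error.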
